A study of Mus musculus with 30 samples.

Results

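The insulin-like growth factor (Igf) receptors, the adaptors that carry their signal and the binding proteins that hold the ligands were followed as 10 genes, of the 11137 genes in the deposited table. They were chosen by name, with earlier results of these data known: the receptors Igf1r and Igf2r, the adaptors Irs1 and Irs2, and the binding proteins Igfbp2, Igfbp3, Igfbp4, Igfbp5, Igfbp6 and Igfbp7. All 10 were present in the table. Their levels were read in 30 libraries of 8 groups, formed by lineage (luminal or basal cells), stage (virgin or parous) and genotype.

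As background, Igf1r is the tyrosine kinase receptor through which Igf1 and Igf2 promote growth and survival, and Igf2r takes up Igf2 and delivers it to lysosomes without such a signal. Irs1 and Irs2 are phosphorylated by Igf1r and by the insulin receptor and recruit PI3K, the entry to the Akt and mTor cascade. The binding proteins are secreted and hold Igf outside the cell, until proteases release it. In the mammary gland (MG) Igf signaling supports ductal and alveolar growth, and Igfbp5 is known for its rise during involution.

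Cells were sorted from single mice as luminal or basal cells and measured by QuantSeq 3′ mRNA sequencing. All mice carried the K8rtTA, TetO-Cre and mTmG alleles and, per the labels, drank doxycycline at 1 mg per ml between weeks 3 and 8 of age. The study's methods instead give 4 weeks of doxycycline from week 4. K8imTmG mice had intact Rank, and K8iΔRank mice also carried floxed Rank (Rank fl/fl), which Cre under the Krt8 promoter deletes in luminal cells, so that K8iΔRank basal cells keep Rank and come from glands whose luminal cells carry the deletion. Virgin and parous mice were matched for age, and parous MGs were collected after involution, but K8iΔRank dams lost their litters at the start of lactation and did not complete it. Luminal libraries came from 3 virgin K8imTmG, 3 virgin K8iΔRank, 5 parous K8imTmG and 4 parous K8iΔRank mice, and basal libraries from 3, 4, 4 and 4 mice in the same order. A group label such as virgin K8iΔRank stands below for the label of the library, because no difference in the level of Rank (Tnfrsf11a) between luminal genotypes passed the test (limma adjusted p = 0.687 in virgin and 0.992 in parous cells). Where the 3′ tags lie relative to the floxed part of Rank was not examined, so that its tags do not check the deletion.

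Libraries held 340445 to 3130419 reads, and 1 read was worth 0.381 to 5.43 normalized counts. Reads were 1862812 to 2422876 in virgin K8imTmG and 814455 to 1158036 in virgin K8iΔRank luminal libraries. Basal libraries in the same order held 340445 to 1172427 and 1200781 to 2104379 in virgin mice. In parous mice they held 450064 to 1365008 and 1844364 to 2996649. These genotypes did not overlap in depth, and those of parous luminal libraries did. The part of depth in genotype differences was not tested. The sort was checked against its markers. The basal keratin Krt5 was at 811 to 1463 normalized counts in basal and at 2.46 to 17.7 in luminal libraries, and the luminal keratin Krt8 at 994 to 3134 in luminal and at 201 to 664 in basal libraries. The libraries were also divided by a split that the labels do not name, read here from the lectin gene Clec2d, at 0.641 to 8.68 normalized counts in 16 Clec2d-low and at 65.6 to 199 in 14 Clec2d-high libraries. All virgin K8imTmG luminal and all virgin K8iΔRank basal libraries were Clec2d-low, and all virgin K8iΔRank luminal and all virgin K8imTmG basal libraries were Clec2d-high. Parous K8iΔRank luminal libraries were all low and parous K8imTmG basal libraries all high. Only the parous K8imTmG luminal group (3 low, 2 high) and the parous K8iΔRank basal group (2 low, 2 high) held both. Virgin genotype differences, and the difference between parous and virgin K8iΔRank luminal cells, therefore cannot be told apart from this split. The same holds for the lineage difference within virgin mice of either genotype.

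Igfbp2 to Igfbp5 are products of 1 gene family, and their shared mark is shown here because the members that carry it behaved differently between the lineages. As background, the amino-terminal domain of the classical binding proteins holds a signature rich in glycine and cysteine. A search of the canonical GENCODE vM39 coding sequences found the signature in Igfbp2, Igfbp3, Igfbp4 and Igfbp5, with its first match in exon 1 of each, and not in Igfbp6 or Igfbp7. The 30 coding bases that start at the signature are printed below 5′ to 3′, with the 15 bases of its first codons, which code only glycine and cysteine, in capitals.
Igfbp2: GGCTGCGGCTGCTGCtccgtgtgcgcacgg
Igfbp3: GGCTGCGGCTGCTGCctgacttgcgcgctg
Igfbp4: GGCTGCGGTTGTTGCgccacttgcgccctg
Igfbp5: GGCTGTGGCTGCTGCatgacttgcgccctg
In GRCm39 these lie at chr1:72863937-72863966 (plus strand) for Igfbp2, chr11:7163560-7163589 (minus strand) for Igfbp3, chr11:98932476-98932505 (plus strand) for Igfbp4 and chr1:72913119-72913148 (minus strand) for Igfbp5. The search fixed the glycine and cysteine residues that the capitals code, so that only bases that keep these residues could differ. The capitals of Igfbp2 and Igfbp3 were the same in 15 of 15 bases, and those of Igfbp4 and Igfbp5 in 12 of 15. Igfbp2 (chr1:72863606-72891634) and Igfbp5 (chr1:72897091-72914043) are neighbours that point towards each other, with 5456 bases between their ends. Igfbp6 (chr15:102052697-102057953) lies 139779 bases from the luminal keratin gene Krt8. The other members are Igf1r (chr7:67601518-67883416), Igf2r (chr17:12901293-12988614), Irs1 (chr1:82210822-82269338), Irs2 (chr8:11034681-11059499), Igfbp3 (chr11:7156086-7164179), Igfbp4 (chr11:98932064-98945218) and Igfbp7 (chr5:77493130-77555931).

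The binding proteins were read mainly in basal cells, with Igfbp5 as the exception. Igfbp2, Igfbp3, Igfbp4, Igfbp6 and Igfbp7 were all higher in basal than in luminal cells, by 3.22 to 6.63 on the log2 scale, whereas Igfbp5 was read at 1001 normalized counts or more in all 30 libraries. Among receptors and adaptors Igf1r and Irs2 were higher in basal cells, Irs1 was slightly higher in luminal cells, and Igf2r did not pass the test. Genes with an adjusted p under 0.05 (limma on log2(normalized count + 1), Benjamini-Hochberg over all genes tested) are called changed below. By this rule 9 of the 10 members differed between lineages, 8 of them higher in basal cells. Of all 11133 genes tested 55.7% were called, 27.0% lower and 28.7% higher in luminal cells. The median difference, luminal minus basal, was -2.36 over the members and 0.04 over all genes. Igfbp2, Igfbp3 and Igfbp6 passed the filter on low values (over 10 normalized counts in at least 25% of libraries) through basal libraries alone and had to differ, so that the count rests on the 7 others, of which 6 were called. The median of -2.36 includes these 3 and is lowered by them. The differences of the 7 others ran from -4.07 (Igfbp7) to 0.50 (Irs1).

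Igfbp2, which binds Igf2 more tightly than Igf1, was close to absent from luminal libraries. It gave 4 reads in all 15 luminal libraries together, at most 1 in any library and 0 in 11 of them, and 744 reads in the 15 basal libraries. Each luminal library was thus under the floor of 3 reads. Scaled to the reads of each lineage, the basal level was 252.6 times the luminal one (95% exact interval 98.2 to 929, which covers counting error only). The fitted log2 difference, luminal minus basal, was -4.90 ± 0.34 (SE, limma adjusted p = 3.0e-13), a difference that the filter fixed. Its size depends on the pseudocount, with -5.71 at a pseudocount of 0.5 and -3.23 at 4. Among basal libraries Igfbp2 varied widely, from 8.36 to 142 normalized counts. The parous K8imTmG libraries held 142, 88.3, 15.9 and 33.0, and the parous K8iΔRank libraries 48.5, 15.9, 8.36 and 98.3, so that no basal group stood apart from the others.

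Igfbp3, the main carrier of Igf in serum, was likewise read almost only in basal cells. Luminal libraries held 0 to 3.36 normalized counts, 11 of 15 of them under the floor. Basal libraries held 575, 198 and 321 in virgin K8imTmG, 66.9, 292, 312 and 102 in virgin K8iΔRank, 274, 308, 334 and 154 in parous K8imTmG, and 132, 94.8, 118 and 307 in parous K8iΔRank mice. The lowest basal library was thus far above the highest luminal one, while the 4 basal groups overlapped. The difference, luminal minus basal, was -6.63 ± 0.24 (SE, limma adjusted p = 8.9e-20), a difference that the filter fixed. Scaled to the reads of each lineage the basal level was 174.7 times the luminal one (95% exact interval 119 to 268, counting error only).

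Igfbp4, which mostly restrains Igf action and is cut by the protease Pappa, was at 1.68 to 27.8 normalized counts in luminal and at 90.0 to 219 in basal libraries. The difference, luminal minus basal, was -3.81 ± 0.26 (SE, limma adjusted p = 2.5e-13). Basal libraries of parous K8iΔRank mice fell into a lower pair at 103 and 94.2 and a higher pair at 196 and 209, which were the Clec2d-low and the Clec2d-high libraries of that group.

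Igfbp6, which prefers Igf2, was at 0 to 5.77 normalized counts in luminal libraries, 9 of 15 under the floor, and at 5.35 to 98.1 in basal ones. The ranges touched, since the highest luminal library (5.77) lay above the lowest basal one (5.35). The difference, luminal minus basal, was -3.22 ± 0.36 (SE, limma adjusted p = 6.3e-09), a difference that the filter fixed. Scaled to the reads of each lineage the basal level was 11.9 times the luminal one (95% exact interval 8.42 to 17.1, counting error only).

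Igfbp7, a related secreted protein that binds Igf weakly and is common around vessels, was at 1.47 to 62.2 normalized counts in luminal and at 64.6 to 1114 in basal libraries. The difference, luminal minus basal, was -4.07 ± 0.31 (SE, limma adjusted p = 2.5e-12). Virgin K8imTmG basal libraries held 901, 612 and 1114 and lay above every other basal library. Virgin K8iΔRank basal libraries held 415 and 394 in mice 821 and 822 but 64.6 and 66.6 in mice 820 and 825. Parous K8imTmG basal libraries were the most even, at 471, 439, 426 and 481.

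Igfbp5, which binds matrix as well as Igf, was the binding protein that both lineages held. In luminal cells it was at 1486, 1001 and 1223 normalized counts in virgin K8imTmG, 1326, 1511 and 2288 in virgin K8iΔRank, 1112, 1625, 1851, 1166 and 2203 in parous K8imTmG, and 2170.4, 2062, 1727 and 2629 in parous K8iΔRank mice. In basal cells it was at 2721, 2451 and 1630.2, then 2846, 2482, 2607 and 2452, then 1739, 1452, 1759.8 and 1736, and then 2323, 1304, 1959 and 1404, with the groups in the same order. The lineages overlapped over most of their ranges, and every group mean in rising order overlapped with the next. The difference, luminal minus basal, was -0.32 ± 0.12 (SE, limma adjusted p = 0.0292), the smallest of the called ones. It was lost with quantile normalization (-0.07, limma adjusted p = 0.756), within Clec2d-low parous K8iΔRank libraries (-0.01, 0.982), within Clec2d-high parous K8imTmG libraries (-0.55, 0.0612) and when each of 6 libraries was left out, which are named with the other limits. With the side of the split as a covariate it was -0.51 (limma adjusted p = 0.000166). With the mouse as a fixed effect the difference was -0.30 and was not called (limma adjusted p = 0.0753). Basal cells were higher in 9 of the 13 mice from which both lineages were sequenced. For Igfbp4 and Igfbp7 basal cells were higher in 13 of 13. The same count for Igfbp2, Igfbp3 and Igfbp6 adds nothing, because the filter fixed their direction.

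**Figure D1:**
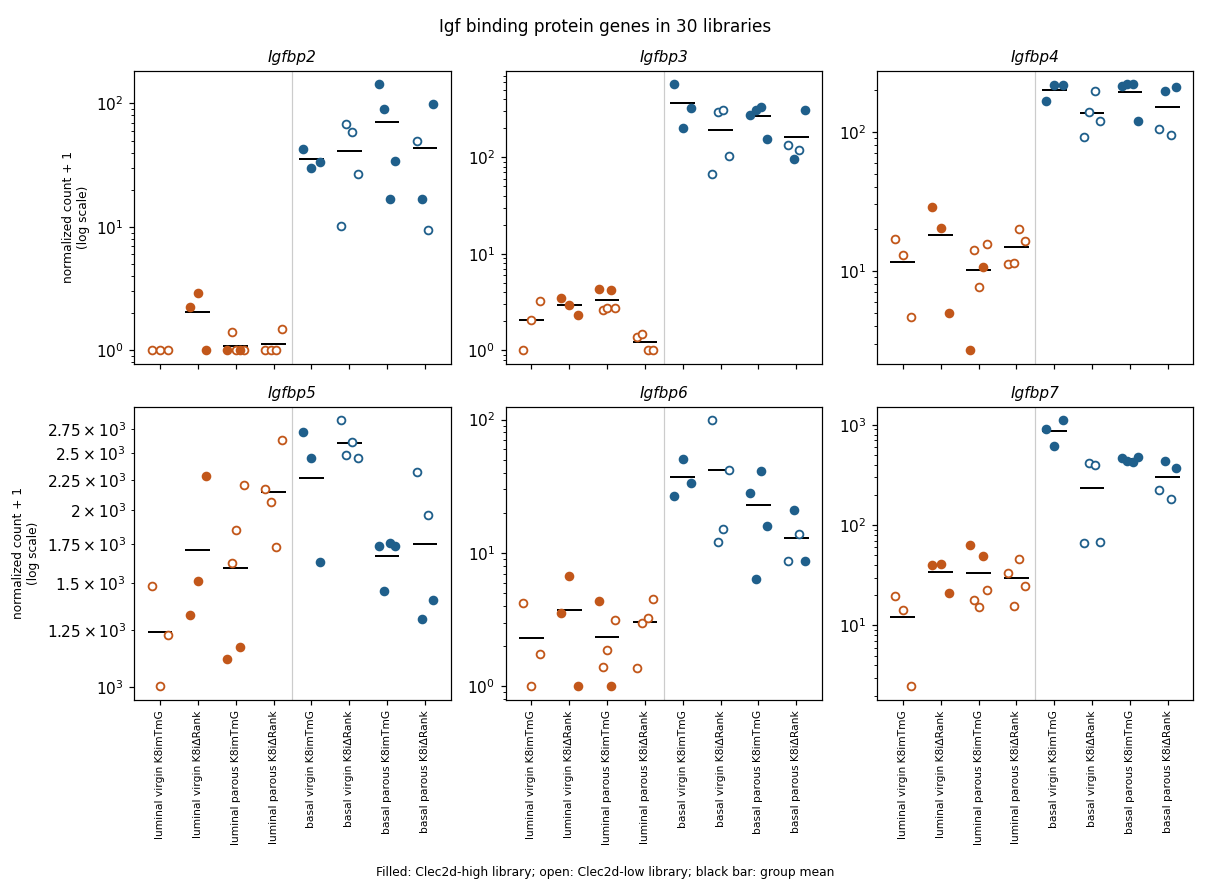
Normalized counts plus 1 (log scale) of the 6 binding protein genes in each of 30 libraries by group, with luminal libraries in orange, basal libraries in blue, filled points for Clec2d-high and open points for Clec2d-low libraries, and a black bar at the group mean. Igfbp2, Igfbp3, Igfbp4 and Igfbp7 leave a gap between the lineages, whereas Igfbp5 lies between 1001 and 2846 in both.

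The luminal and basal libraries did not overlap for 4 of the 10 members, Igfbp2, Igfbp3, Igfbp4 and Igfbp7, against 9.57% of all 11137 genes. Without the 3 members that passed the filter through basal libraries alone it was 2 of 7, Igfbp4 and Igfbp7. In rising order of group means the 4 luminal groups of Igfbp2, Igfbp3, Igfbp4, Igfbp6 and Igfbp7 came first and overlapped with each other in turn. The last of them did not overlap with the first basal group. For Igfbp2, Igfbp3 and Igfbp6 the filter fixed which lineage was higher. Among the basal groups of these genes only virgin K8imTmG Igfbp7 did not overlap with the basal group below it. Luminal groups also came first for Igf1r and Irs2, but there the last luminal group overlapped with the first basal one.

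Most markers of other cell types moved with the lineage as well. The summed level of 8 of 8 fibroblast markers was 131 to 966 normalized counts in luminal and 963 to 1708 in basal libraries, of 7 of 8 endothelial markers 16.3 to 131 against 87.6 to 1237, of 3 of 6 adipocyte markers 21.3 to 181 against 196 to 3018 and of 2 of 8 immune markers 3.20 to 28.8 against 35.3 to 99.1. The sum of 3 of 6 pericyte markers, 96.8 to 214 against 65.5 to 278, joined genes that went opposite ways, since Rgs5 (1.60 to 20.1 against 38.0 to 228) and Pdgfrb (0 to 6.39 against 8.37 to 43.5) were higher in every basal than in any luminal library and Notch3 (94.4 to 203 against 8.15 to 35.8) the reverse. The endothelial sum also joined genes that went opposite ways. Vwf was at 7.50 to 82.3 in luminal and at 0 to 17.3 in basal libraries, and the other endothelial markers had higher medians in basal libraries. The fibroblast sum held Pdpn (0 to 56.0 against 178 to 807) and Dcn, which overlapped (33.5 to 938 against 311 to 677). Per the study's methods the sort excluded CD45+ and CD31+ cells, that is lymphocytes and endothelial cells. No fibroblast, endothelial, pericyte, immune or adipocyte marker in the table was at 0 in every luminal library, and Pdgfra, Cldn5, Emcn and Vwf were each at 0 in 1 basal library. In bulk libraries fewer cells of a type and less RNA per cell cannot be told apart, and the part of these cells in the basal levels of the binding proteins was not tested. Beside Igfbp7, the endothelial sums of the basal groups were 223 to 562 in virgin K8imTmG (Igfbp7 612 to 1114), 284 to 1237 in virgin K8iΔRank (64.6 to 415), 87.6 to 175 in parous K8imTmG (426 to 481) and 113 to 204 in parous K8iΔRank mice (182 to 439).

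Igf1r was the clearest of the receptor genes. In luminal cells it was at 121, 89.1 and 67.7 normalized counts in virgin K8imTmG, 64.4, 63.5 and 56.8 in virgin K8iΔRank, 84.0, 166, 123, 205 and 168 in parous K8imTmG, and 148, 93.3, 92.0 and 101.3 in parous K8iΔRank mice. In basal cells it was at 236, 277 and 234 in virgin K8imTmG, 297, 377, 349 and 280 in virgin K8iΔRank, 174, 201, 247 and 172 in parous K8imTmG, and 303, 281, 313 and 301 in parous K8iΔRank mice. The lowest group was virgin K8iΔRank luminal cells, which did not overlap with the next, and the highest were the K8iΔRank basal groups, which overlapped with each other but not with virgin K8imTmG basal cells. The lineages overlapped only between parous K8imTmG luminal and basal cells. The difference, luminal minus basal, was -1.44 ± 0.11 (SE, limma adjusted p = 6.5e-12), and basal cells were higher in 13 of 13 mice. Within the Clec2d-high parous K8imTmG libraries alone it was -0.58 (limma adjusted p = 0.261).

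The adaptors went opposite ways. Irs2 was at 94.9 to 349 normalized counts in luminal and at 322 to 906 in basal libraries, a difference of -1.50 ± 0.14 (SE, luminal minus basal, limma adjusted p = 1.3e-10), with basal cells higher in 13 of 13 mice. Irs1, in contrast, was at 83.9 to 339 in luminal and at 63.5 to 171 in basal libraries, a difference of 0.50 ± 0.16 (SE, limma adjusted p = 0.00822), with luminal cells higher in 11 of 13 mice. The opposite signs of the adaptors held in 12 of the 13 alternative fits for Irs1 and in 13 of 13 for Irs2 with their calls, the exception being Irs1 within the Clec2d-low parous K8iΔRank libraries (0.39, limma adjusted p = 0.367). In rising order of group means Irs2 placed the 4 luminal groups before the 4 basal groups, and Irs1 mixed them, with each neighbour overlapping the next.

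The lineage difference of Igf2r over all libraries did not pass the test (0.50 ± 0.24, SE, luminal minus basal, limma adjusted p = 0.0825), with luminal cells higher in 7 of 13 mice. In basal cells its levels parted with the Clec2d split. It was there at 15.0 to 69.5 normalized counts in the 6 Clec2d-low and at 75.6 to 161 in the 9 Clec2d-high libraries, which did not overlap. Within the parous K8iΔRank basal group the low libraries held 48.9 and 62.1 and the high ones 94.8 and 132. Within the parous K8imTmG luminal group the low libraries held 69.2, 65.3 and 78.7 and the high ones 260 and 185. Over all luminal libraries the sides overlapped, with 40.7 to 170 in the 10 low and 73.1 to 265 in the 5 high libraries. With the side of the split as a covariate the lineage difference of Igf2r was 0.87 ± 0.23 (SE, limma adjusted p = 0.00181). Within the Clec2d-high parous K8imTmG libraries it was 1.33 (limma adjusted p = 0.00280), and within the Clec2d-low parous K8iΔRank libraries 0.12 (0.779).

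**Figure D2:**
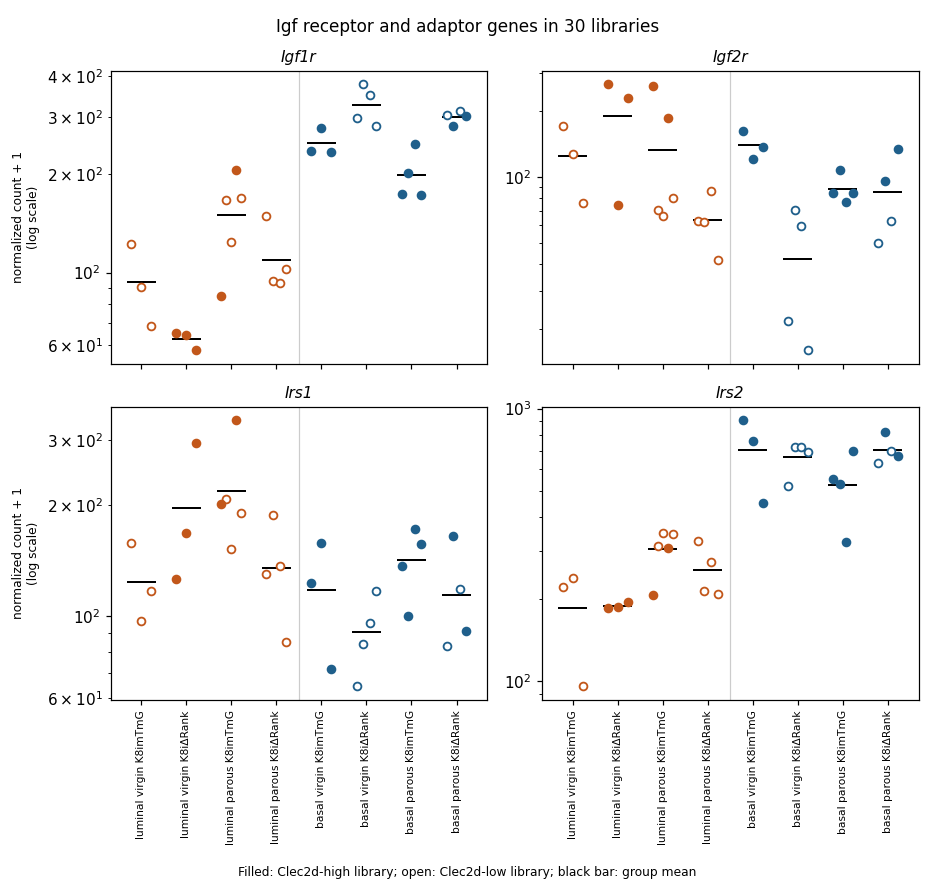
Normalized counts plus 1 (log scale) of Igf1r, Igf2r, Irs1 and Irs2 in each of 30 libraries by group, drawn as in the plot of the binding proteins. Igf1r and Irs2 lie higher in basal libraries, and filled (Clec2d-high) basal points of Igf2r lie above all open ones, 75.6 to 161 against 15.0 to 69.5.

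The size of the lineage difference of Igf1r and Igfbp7 changed with condition. Luminal minus basal, Igf1r was at -1.45 ± 0.25 (SE) in virgin K8imTmG, -2.38 ± 0.23 in virgin K8iΔRank, -0.46 ± 0.21 in parous K8imTmG and -1.48 ± 0.22 in parous K8iΔRank mice. It was thus wider in K8iΔRank than in K8imTmG mice at either stage. Tested as lineage by genotype, the change was -0.98 ± 0.23 (SE, limma adjusted p = 0.00866). Igfbp7 went the other way, with -6.59 ± 0.68 in virgin K8imTmG, -2.33 ± 0.64 in virgin K8iΔRank, -4.00 ± 0.56 in parous K8imTmG and -3.37 ± 0.59 in parous K8iΔRank mice, and a lineage by genotype change of 2.44 ± 0.62 (SE, limma adjusted p = 0.0120). In virgin mice the luminal and basal libraries lay on opposite sides of the Clec2d split, in reverse order in K8imTmG and K8iΔRank. The virgin values therefore cannot be told apart from the split. The members called for lineage by genotype were 2 of 10, against 14.8% of all genes. With the side of the Clec2d split as a covariate neither was called, with -0.82 ± 0.31 for Igf1r (limma adjusted p = 0.675) and 1.05 ± 0.77 for Igfbp7 (limma adjusted p = 0.838). That fit called 0 of all 11133 genes, so that the lost calls are not particular to the members. Tested as lineage by stage, 1 of 10 members was called against 0.647% of all genes. This was Igf1r, whose lineage difference was narrower in parous mice (0.94 ± 0.23, SE, limma adjusted p = 0.0482), a call that was lost when any 1 of 23 libraries was left out and with the split as a covariate, while its size stayed at 0.84 to 0.98 in those 23 fits and at 0.86 with the covariate (limma adjusted p = 0.228). For lineage by stage the fit with the covariate called 4 of all 11133 genes. Igfbp5 had a lineage by stage change of 0.85 ± 0.25 (SE, limma adjusted p = 0.100).

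**Figure D3:**
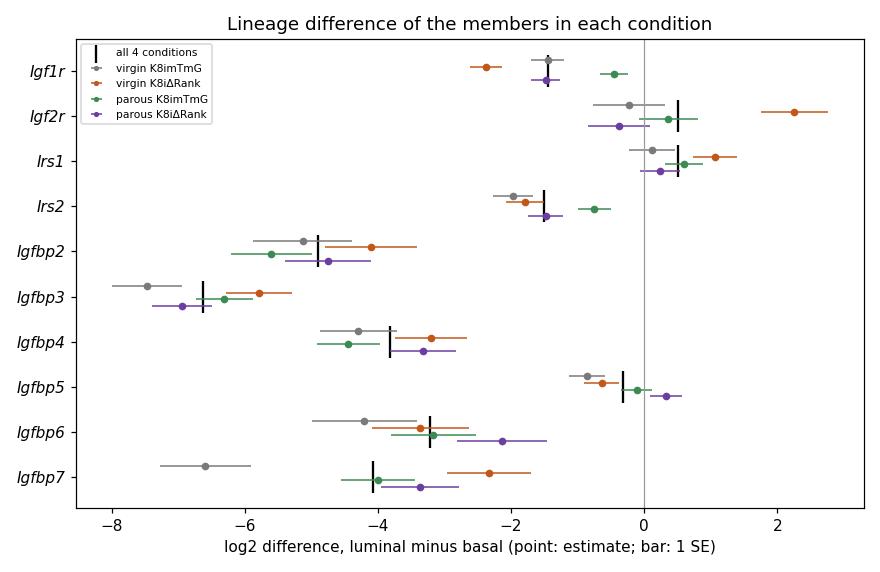
Log2 difference, luminal minus basal, of each member in the 4 conditions (points, with bars of 1 SE) and averaged over them (black ticks). Igfbp2, Igfbp3, Igfbp4, Igfbp6 and Igfbp7 lie far below 0 in every condition, and Igf1r ranges from -2.38 to -0.46. In virgin mice the lineages lie on opposite sides of the Clec2d split.

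Loss of luminal Rank was compared with control cells of the same lineage and stage. The virgin and parous comparisons use different mice, but each group also serves in a comparison of parous with virgin cells, and those comparisons share it. In luminal cells no member was called in either stage. Of the 10 members 7 passed the filter there, since Igfbp2, Igfbp3 and Igfbp6 were too low to be tested. In virgin luminal cells limma called 0 of 7 members against 0.984% of all genes, with 1 of 7 at an unadjusted p under 0.05 (22.1% of all genes) and 0 by DESeq2 and by edgeR (6.44% and 1.37% of all genes). In parous luminal cells it called 0 of 7 against 0.0991%, again with 1 at an unadjusted p under 0.05 (19.9% of all genes) and 0 by both other tools (6.06% and 0.198%). The former was Igfbp7, at 18.6, 13.1 and 1.47 normalized counts in virgin K8imTmG and at 39.1, 40.4 and 19.8 in virgin K8iΔRank cells (1.89 ± 0.70, SE, limma adjusted p = 0.159). The latter was Irs1, at 200, 206, 150, 339 and 190 in parous K8imTmG and at 129, 187, 136 and 83.9 in parous K8iΔRank cells (-0.69 ± 0.27, SE, limma adjusted p = 0.197). The virgin values did not overlap and the parous ones did. Summed basal markers in the same virgin luminal libraries were 61.5, 60.3 and 70.6 in K8imTmG and 227, 76.9 and 152 in K8iΔRank mice. The part of basal cells in the luminal Igfbp7 levels was not tested.

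In basal cells, which keep Rank, Igf2r was lower in virgin K8iΔRank mice. It was at 161, 120 and 136 normalized counts in virgin K8imTmG and at 20.8, 69.5, 58.2 and 15.0 in virgin K8iΔRank libraries, which did not overlap. The difference was -2.00 ± 0.50 (SE, limma adjusted p = 0.0368), the single call among 10 members against 8.99% of all genes. Without mice 820 and 825, an alternative chosen after the data were seen, the virgin K8iΔRank basal libraries left were 69.5 and 58.2. These mice stood below mice 821 and 822 in Igfbp3 (66.9 and 102 against 292 and 312) and Igfbp7 (64.6 and 66.6 against 415 and 394), and above them in Igfbp6 (98.1 and 40.8 against 11.2 and 14.2). The call for Igf2r was kept without both (-1.10, limma adjusted p = 0.0388), but was lost when mouse 820 or mouse 825 alone was left out (limma adjusted p = 0.0709 and 0.0809), and when any of the K8imTmG mice 531, 538 and 568 was (0.0968, 0.0859 and 0.0966), with array quality weights (0.0752) and with edgeR (0.0518). The difference of Igfbp7 was -2.37 ± 0.67 (SE) and was not called (limma adjusted p = 0.0537), and it was -1.07 without mice 820 and 825 (0.0524). DESeq2 called it (0.0207). All 3 virgin K8imTmG basal libraries were Clec2d-high and all 4 virgin K8iΔRank ones Clec2d-low, so that neither difference can be told apart from the split. In parous basal cells limma called 0 of 10 members against 0.906% of all genes, with 3 at an unadjusted p under 0.05 (22.6% of all genes), 1 by DESeq2 (6.09%) and 0 by edgeR (0.633%). The member DESeq2 called was Igf1r, at 0.61 ± 0.18 (SE, limma adjusted p = 0.0932), where all 4 parous K8iΔRank libraries (281 to 313) were above all 4 parous K8imTmG ones (172 to 247). Among Clec2d-high libraries alone this was 0.57 (limma adjusted p = 0.493), in a fit that called 0 of 10416 genes.

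Parity was compared within each genotype and lineage. In K8imTmG luminal cells limma called 0 of 7 members tested against 2.20% of all genes, with 3 of 7 at an unadjusted p under 0.05 (21.7% of all genes) and 0 by DESeq2 and by edgeR (10.3% and 2.69%). These 3 were Irs1, Irs2 and Igfbp7, higher in parous cells by 0.79 ± 0.28, 0.80 ± 0.32 and 1.69 ± 0.71 (SE, limma adjusted p = 0.149, 0.190 and 0.206). Igf1r was higher by 0.66 ± 0.31 (SE, limma adjusted p = 0.254), with an unadjusted limma p of 0.0620. Limma with array quality weights called 5 of 7 members, Igf1r, Irs1 and Irs2 among them, and 38.8% of all genes. Among Clec2d-low libraries alone, 3 against 3, the differences of Igf1r, Irs1 and Irs2 were 0.74, 0.58 and 0.97 (limma adjusted p = 0.0944, 0.136 and 0.0936).

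In K8iΔRank luminal cells 2 of 7 members were called, against 16.0% of all genes. Igf1r was higher in parous cells, at 148, 93.3, 92.0 and 101.3 against 64.4, 63.5 and 56.8, by 0.78 ± 0.22 (SE, limma adjusted p = 0.0335), and the groups did not overlap. Igf2r was lower, at 62.0, 60.9, 84.7 and 40.7 against 265, 73.1 and 230, by -1.44 ± 0.41 (SE, limma adjusted p = 0.0360). There mouse 822, at 73.1, lay within the parous range. Both calls were lost when all 15 luminal libraries were fitted together (limma adjusted p = 0.108 and 0.103), a fit that called 222 of 10262 genes. That for Igf1r was also lost without any one of mice 821, 822, 825, 787, 794 and 830 (limma adjusted p of 0.0513 to 0.0834), and that for Igf2r without any one of mice 821, 825, 787, 794 and 830 (0.0634 to 0.139). The virgin libraries were all Clec2d-high and the parous ones all Clec2d-low, so that parity and the split cannot be told apart here.

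In basal cells no member was called after parity in either genotype, nor was any gene of the table. In K8imTmG basal cells limma called 0 of 10 members against 0% of all genes. There 2 members and 969 genes had an unadjusted p under 0.05, DESeq2 called 1 member and 40 genes, and edgeR 0 members and 8 genes. The member was Igfbp7, which was at 901, 612 and 1114 in virgin and at 471, 439, 426 and 481 in parous K8imTmG basal libraries (-0.90 ± 0.21, SE, limma adjusted p = 0.229), all of them Clec2d-high. The groups did not overlap. In K8iΔRank basal cells limma called 0 of 10 members against 0%, with 2 members and 1036 genes at an unadjusted p under 0.05, and DESeq2 and edgeR called 0 members, and 89 and 0 genes. Whether the genotype changed the difference made by parity was tested in each lineage. In luminal cells limma called 0 of 7 members against 12.9% of all genes, with 2 at an unadjusted p under 0.05 (32.7% of all genes), 1 by DESeq2 (19.4%) and 0 by edgeR (12.6%). The member DESeq2 called was Irs1 (-1.30 ± 0.45, SE, limma adjusted p = 0.0675), at 156, 95.9 and 116 in virgin and 150 to 339 in parous K8imTmG, and at 125, 167 and 293 in virgin and 83.9 to 187 in parous K8iΔRank luminal cells. In basal cells limma called 0 of 10 against 0%, with 2 members and 1082 genes at an unadjusted p under 0.05, and 0 members by both other tools.

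**Figure D4:**
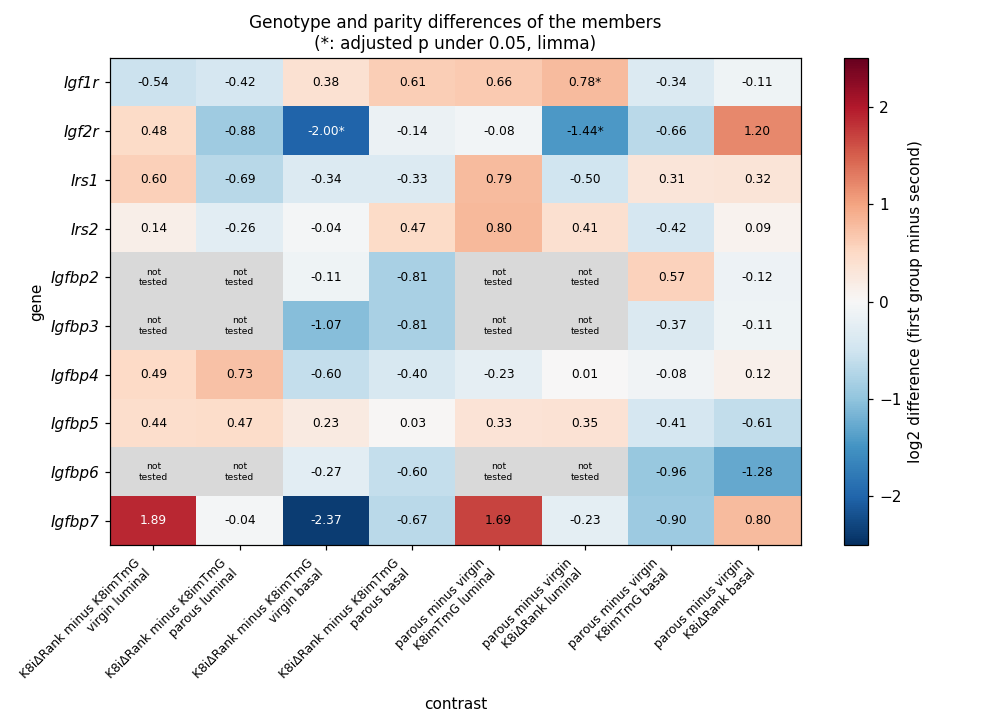
Log2 differences of the 10 members in the 4 comparisons of genotype and the 4 of parity, with asterisks at a limma adjusted p under 0.05 and grey cells where a gene was too low to be tested. The 3 asterisks mark Igf2r in virgin basal cells (-2.00) and Igf1r (0.78) and Igf2r (-1.44) in K8iΔRank luminal cells.

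The wider Igf pathway was read from a list of 51 other genes, of which 39 were in the table. Between lineages 22 of the 39 were called, 13 higher and 9 lower in luminal cells, which is 56.4% against the 55.7% of all genes. Htra1 and Igf2bp2 passed the filter through 1 lineage alone and had to differ, and without them it was 20 of 37. Fits of genes that lie near the floor in 1 lineage depend on the pseudocount, here 1 normalized count. Of the ligands Igf1 alone was in the table. It was low, at 0 to 26.4 normalized counts in luminal libraries, 5 of them under the floor, and at 5.35 to 24.4 in basal ones, 2 under the floor (-1.68 ± 0.31, SE, luminal minus basal, limma adjusted p = 3.2e-05), and it was at -0.52 within Clec2d-high libraries (0.730). The insulin receptor gene Insr was at 22.9 to 62.1 in luminal and at 12.6 to 57.9 in basal libraries (0.23 ± 0.14, SE, limma adjusted p = 0.156).

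Genes that act on the binding proteins were then read. The Igfbp protease Pappa was at 0 to 27.8 normalized counts in luminal and at 41.5 to 278 in basal libraries (-5.60 ± 0.42, SE, limma adjusted p = 1.6e-12), and Htra1, another secreted protease, at 0 to 8.10 and 16.5 to 121 (-3.97 ± 0.25, limma adjusted p = 6.4e-14, a difference that the filter fixed). Both were thus high in the lineage that held Igfbp4. Higher in luminal cells were Stc2, a stanniocalcin that inhibits Pappa (18.5 to 633 against 0 to 40.2, a difference of 5.03 ± 0.40, limma adjusted p = 8.3e-12), and Igfals, the acid labile subunit that joins Igf and Igfbp3 or Igfbp5 in a ternary complex (26.4 to 128 against 0 to 19.3, a difference of 3.41 ± 0.25, limma adjusted p = 8.8e-13). Of the signaling genes the lipid phosphatase gene Inppl1 (1.67 ± 0.15) and the mRNA binding protein gene Igf2bp2 (3.29 ± 0.30, and 2.01 at a pseudocount of 4) were higher, and the mTor activator Rheb (-0.67 ± 0.10) and the Akt target Foxo1 (-0.83 ± 0.13) lower in luminal cells.

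**Figure D5:**
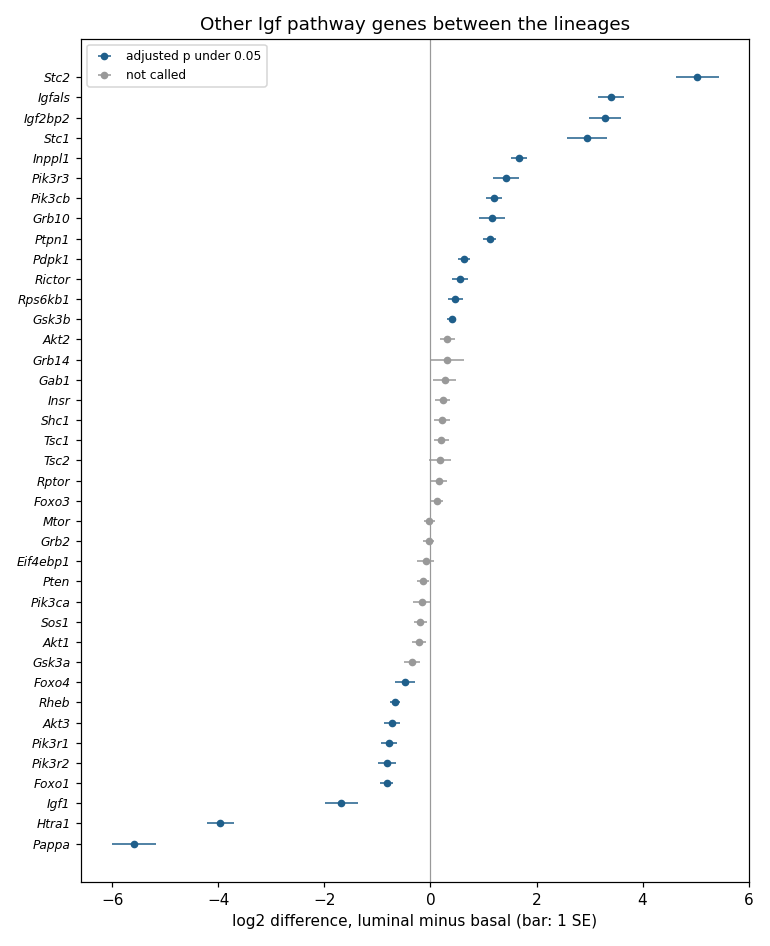
Log2 difference, luminal minus basal, with bars of 1 SE, of the 39 other Igf pathway genes, in blue where the limma adjusted p was under 0.05. Stc2 (5.03) and Igfals (3.41) lie at the luminal end and Htra1 (-3.97) and Pappa (-5.60) at the basal end.

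With parity the stanniocalcin gene Stc1 rose in luminal cells of both genotypes. In K8imTmG cells it was at 17.7 to 53.8 in virgin and at 141 to 215 normalized counts in parous libraries (2.27 ± 0.34, SE, limma adjusted p = 0.0227), with a difference of 2.23 among Clec2d-low libraries alone (limma adjusted p = 0.0164). In K8iΔRank cells it was at 15.4 to 37.0 and 103 to 183 (2.36 ± 0.31, SE, limma adjusted p = 0.00223), where parity and the split cannot be told apart. In K8imTmG luminal cells the PI3K subunit gene Pik3r1 also rose (1.46 ± 0.22, limma adjusted p = 0.0227) and the phosphatase gene Ptpn1 fell (-1.56 ± 0.24, limma adjusted p = 0.0240), which made 3 of 37 pathway genes called, against 2.20% of all genes. The call for Stc1 was lost without any one of mice 533, 538 and 532 (difference 1.81 to 2.42, limma adjusted p = 0.0785, 0.0747 and 0.0635), and those for Pik3r1 and Ptpn1 without any one of mice 531, 533, 538 and 532 (0.0631 to 0.107). In K8iΔRank luminal cells 5 of 37 were called, against 16.0% of all genes, among them Igfals (1.55 ± 0.25), Foxo1 (0.73 ± 0.19) and the PI3K subunit gene Pik3r3 (-1.41 ± 0.24), the last pair of which were lost with all luminal libraries in one fit (limma adjusted p = 0.143 and 0.0611). That for Foxo1 was also lost without any one of mice 821, 822, 787 and 830 (0.0527 to 0.0791). In virgin basal cells 4 of 37 were higher in K8iΔRank mice, against 8.99% of all genes called, among them Htra1 (1.63 ± 0.34), Ptpn1 (1.29 ± 0.31) and the Akt target Gsk3b (0.76 ± 0.18), and all 3 calls were lost without mice 820 and 825, where the differences were 1.64, 0.95 and 0.63 (limma adjusted p = 0.0639, 0.132 and 0.0708). With 1 library left out Htra1 was lost without mouse 538, 568 or 825 (0.0549 to 0.0691), Ptpn1 without 531, 568, 820 or 825 (0.0667 to 0.0985), and Gsk3b without any of the 7 (0.0504 to 0.1002). No pathway gene was called by limma for genotype in virgin luminal, parous luminal or parous basal cells, or for parity in basal cells. There 6, 4, 8, 4 (K8imTmG) and 1 (K8iΔRank) of 37 had an unadjusted p under 0.05. Of all genes 22.1%, 19.9%, 22.6%, 9.20% and 9.84% had one, in the same order.

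Profiles most like each member were found over all 30 libraries by the root mean square difference of log2 values centred per gene, so that lineage and the Clec2d split, which all genes share, weigh in them. Nearest to Igf1r were Foxn3 (0.321) and Frmd4a (0.368), to Igf2r Tmbim6 (0.358) and Cmtm6 (0.363), to Irs1 Itm2b (0.384) and Ankrd28 (0.392), and to Irs2 Klhl21 (0.329) and Pdgfc (0.338). Nearest to Igfbp2 were Capn6 (0.614) and Gm33651 (0.652), to Igfbp3 the basal transcription factor Trp63 (0.736) and Dpysl3 (0.795), to Igfbp4 Gask1b (0.647) and the laminin subunit Lama3 (0.654), and to Igfbp5 Trim44 (0.306) and Cep57 (0.333). Nearest to Igfbp6 were Rapgef3 (0.763) and the collagen Col6a2 (0.775), and to Igfbp7 Lix1l (0.746) and Pros1 (0.815). The SD of the member itself over the libraries was lowest for Igfbp5 (0.42) and highest for Igfbp3 (3.37).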

How the data were processed

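After trimming, the authors mapped reads with Bowtie2 (GRCm39), collapsed duplicates on their UMIs, counted over Gencode vM26 genes and divided by DESeq2 size factors, and the deposited signal values are these normalized counts (1 table, with 0 columns left unmapped). Every value was a whole multiple of 1 step per library (100%), which gave back the reads. No pair of replicates held the same library (chi-square per degree of freedom at least 2.67 in 43 pairs).

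Groups were compared with limma 3.58.1 (trend, Benjamini-Hochberg) among genes over 10 normalized counts in 25% of the libraries compared, with 2 groups per fit, or all groups for tests that join lineages or stages. On the recovered reads edgeR 4.0.16 called 6219 and DESeq2 1.42.0 called 6331 genes between lineages. R 4.3.3 and Python 3.11.15 with pandas 2.3.3 and matplotlib 3.10.9 were used. The fits were tried on simulated data. Same-numbered libraries come from 1 mouse, and their deviations correlated by -0.238 to 0.341 in 13 mice (consensus 0.0624).

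The members and lists were chosen with earlier results of these data known. Of the other pathway genes the text names the ligands, Insr and those with the lowest adjusted p, at most 4 per direction between lineages and 3 elsewhere. Coordinates and coding sequences are those of GENCODE vM39.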

Additional observations from a re-analysis of the deposited data

Results flagged for a closer look

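In groups of 4 or 5 libraries, 6 of 50 combinations of member and group held 1 library set apart from its group (gap over range past the 95% critical value, which chance passes in about 1 of 20). For Igf1r this was mouse 787 in parous K8iΔRank luminal cells, at 148 normalized counts (gap over range 0.832), and for Irs2 mouse 820 in virgin K8iΔRank basal cells, at 517 (0.836). For Igfbp4 it was mouse 558 at 119 (0.942), and for Igfbp5 mouse 534 at 1452 (0.923), both in parous K8imTmG basal cells. The other 2 were single reads of Igfbp2 in luminal cells, in parous K8imTmG mouse 532 and parous K8iΔRank mouse 830, where every other library was at 0 (gap over range 1 in both).

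Differences that changed between groups by a test of the change itself were, for the members, Igf1r by lineage and stage (0.94), Igf1r by lineage and genotype (-0.98) and Igfbp7 by lineage and genotype (2.44). None of these member calls was kept with the Clec2d split as a covariate (limma adjusted p = 0.228, 0.675 and 0.838). That of Igf1r by lineage and stage was also lost without any 1 of 23 libraries. Of the other pathway genes named, Ptpn1 (-1.05), Rps6kb1 (-1.13) and Gsk3b (-0.69) changed by lineage and genotype, and none of these 3 was called with the Clec2d split as a covariate, where Ptpn1 was at -0.99, Rps6kb1 at -0.08 and Gsk3b at -0.34 (limma adjusted p = 0.576, 0.972 and 0.802). For lineage by genotype the fit with the covariate called 0 of all 11133 genes, and for lineage by stage 4. In luminal cells Pik3r1 (-1.19) and Ptpn1 (2.02) changed by genotype and stage, and the part of the split was not tested there. The call for Pik3r1 was lost without any one of 10 libraries (virgin K8imTmG mice 531, 533 and 538, virgin K8iΔRank mice 822 and 825, parous K8imTmG mice 494 and 557, and parous K8iΔRank mice 794, 798 and 830), at -1.30 to -0.98 (limma adjusted p = 0.0502 to 0.0891), and with array quality weights (-0.69, 0.0824).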

How the results depend on the processing

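The lineage count of 9 members was 5 within Clec2d-low parous K8iΔRank libraries (8 tested, with 3246 of 10567 genes called) and 8 to 10 in the 30 fits that left out 1 library. With mice paired as a replicate block it was 9 (estimated correlation) and 8 (fixed effect, where Igfbp5 was lost, limma adjusted p = 0.0753), and the block changed no other call. The calls for Igf1r (-0.58 within Clec2d-high parous K8imTmG libraries) and Igfbp5 (6 fits without virgin K8imTmG luminal mouse 533, virgin K8iΔRank luminal mouse 821 or 822, virgin K8imTmG basal mouse 531 or 538, or parous K8iΔRank basal mouse 787, limma adjusted p of 0.0503 to 0.0644) were the others lost, beside Irs1. Insr turned from 0.23 to -0.055 within the Clec2d-low libraries.

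In virgin basal cells the count of 1 became 2 with a pseudocount of 4, quantile normalization, DESeq2 and all basal libraries in one fit, 0 with array quality weights and edgeR, and 0 to 2 with 1 library left out. Of all genes the named fits called 1107, 1038 and 1162 of 10616, 1803 of 10607, and 1339 and 870 of 10616, in the same order. Array quality weights gave 3 in place of 0 in virgin luminal and parous basal cells, 5 after parity in K8imTmG luminal cells, and 2 for lineage by stage, and with these weights 2514 of 10066, 2572 of 10592, 3993 of 10279 and 349 of 11133 genes were called. DESeq2 gave 1 in parous basal cells, 1 after parity in K8imTmG basal cells and 2 for lineage by stage. There it called 645 of 10592, 40 of 10538 and 258 of 11133 genes. For lineage by stage a pseudocount of 0.5, the split as a covariate and leaving out mice 820 and 825 gave 0, and 1 library left out gave 0 to 2. Of all 11133 genes the pseudocount of 0.5 called 59 and the covariate 4. For lineage by genotype the split as a covariate gave 0, with 0 of 11133 genes called, and 1 library left out 2 to 3. For genotype by stage in luminal cells no filter, quantile normalization, array weights and DESeq2 each gave 1, and 1 library left out 0 to 1. Of all genes the named fits called 1306 of 11130, and 1291, 2671 and 1990 of 10262, in the same order. After parity in K8iΔRank luminal cells all luminal libraries in one fit gave 0, with 222 of 10262 genes called, and 1 library left out 0 to 2. In parous basal cells 1 library left out gave 0 to 1. The other counts stayed at 0 in every fit. The cause of these changes was not tested. Depth limits the luminal levels of Igfbp2, Igfbp3 and Igfbp6, which lie near the floor of 3 reads.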
